A study of Mus musculus with 16 samples.

Results

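Ldha, Slc16a1, Hk1, Acot7, Oat, Pdgfra, Rest and Igfbp4 are genes that most tissues use and that mature pancreatic beta cells normally keep low. They were taken as a named list of 8 genes out of 20757 autosomal protein-coding genes, and their open chromatin was read from ATAC-seq peaks of mouse islets. The peaks of the 16 samples were merged into 347712 regions on the 19 autosomes, and a region belonged to a gene if it overlapped the gene body or the 3 kb upstream of it. This gave 51 regions. In ATAC-seq a transposase cuts accessible DNA, so that open promoters and enhancers collect reads.

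The samples were islets of the 8 founder strains of the Diversity Outbred mouse population, with 1 untreated female and 1 untreated male of each. The labels spell the strains 129S1_SvImJ, A_J, C57BL/6J, CAST_EiJ, NOD_ShiLtJ, NZO_HlLtJ, PWK_PhJ and WSB_EiJ, here called 129, AJ, B6, CAST, NOD, NZO, PWK and WSB. 129, AJ, B6, NOD and NZO are classical inbred strains (5 strains, 10 samples), and CAST, PWK and WSB are wild-derived (3 strains, 6 samples). Each sample was made from 50 islets, and the age of the mice is not given in the sources used here. Whole islets hold alpha, delta, duct, vessel and immune cells beside beta cells, so in these samples fewer cells of a type and less open chromatin per cell cannot be told apart. A strain has 1 female and 1 male as its replicates, and p-values for strain and sex measure the spread between such pairs. Those for strain class measure the spread between strain means.

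Disallowed genes are silenced as beta cells mature, and several of them would let the cell respond to fuels other than glucose. Lactate dehydrogenase (Ldha) and the monocarboxylate transporter MCT1 (Slc16a1) handle lactate and pyruvate, and their absence keeps exercise-derived pyruvate from releasing insulin. Hexokinase 1 (Hk1) has a high affinity for glucose and stays active when glucose is low. Acot7 cleaves acyl-CoA esters, Oat is a mitochondrial enzyme of ornithine metabolism, Pdgfra is a growth factor receptor of mesenchymal cells, Igfbp4 binds insulin-like growth factors, and Rest represses neuronal genes in cells that are not neurons or endocrine cells.

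Signal is given as scaled signal, which is the summit signal of the highest peak of a sample in a region divided by the median of that sample over the 40940 regions called in all 16 samples. A value of 1 is the typical shared region, and 0 means that no peak was listed there, not that the chromatin was closed. A listed peak passed the authors' false discovery rate of 0.05 in that sample. The sample medians were 32 (PWK male) to 136 (CAST male), and the lists held 77887 to 167051 autosomal peaks. The lists give no read totals, and the depth of each sample was not analysed here. All reads were aligned to the B6 reference.

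The labelled tissue was checked against its markers. All 8 beta cell markers had a start region in all 16 samples (median of their mean scaled signals 1.62), among them Ins1 (3.97) and Nkx6-1 (3.12), and the alpha cell hormone gene Gcg had 4.03. Sst, which defines delta cells, had no region at its start. Nor had Pecam1 and Cdh5 of endothelial cells, Cd79a and Cd3e of lymphocytes, or Cpa1, Cel, Pnlip and Ptf1a of acinar cells. Other markers of such cells did have one. These were Bhlha15 (acinar) in all 16 samples, Tek and Kdr (endothelial) in 11 and 6, Hhex (delta) in 10, and Ptprc and Csf1r (leukocyte) in 3 and 1. The duct marker Cftr and the mesenchymal marker Col1a2 had one in all 16. The NZO male stood apart and is set out here before the results. It listed 37 of the 51 regions of the 8 genes (72.5%), but 37.9% of all regions and 43.0% of those at protein-coding genes. The other samples listed 10 to 26 of the 51. Of the 51 regions, 15 were listed in the NZO male alone and entered the set only through it, which raises its count. The NZO male was also the highest of the 16 samples at 29.2% of the 9684 shared start regions of all genes. Values that rest on it are given with and without it.

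Most of the disallowed genes had an open start site, but a weak one. A start region is the merged region over a transcription start site (TSS) of a GENCODE protein-coding transcript, and where a gene had several the one of highest mean signal was taken. Of the 8 genes, 6 had a start region in all 16 samples, against 52% of all protein-coding genes. Acot7 had one in 12 samples and Igfbp4 in none. The mean scaled signal was 1.24 at Hk1, 1.20 at Oat, 0.884 at Slc16a1, 0.637 at Rest, 0.604 at Ldha, 0.594 at Pdgfra and 0.462 at Acot7. The median over the 8 genes was 0.621, and over all 20757 genes it was 0.721. Among the 10794 genes whose start region was called in all 16 samples the quartiles were 1.27 and 4.02 with a median of 2.21. The 6 disallowed genes called in all samples each lay under the lower quartile. So did the beta cell markers Ins2 (0.886), Iapp (1.02) and Slc30a8 (1.12), while the other beta cell markers lay above it. Without the NZO male the means were 1.07 at Hk1, 1.14 at Oat, 0.537 at Ldha and 0.378 at Acot7. Both sexes of a strain gave matching peaks, by an irreproducible discovery rate of at most 0.05 in the authors' strain lists, at the starts of Hk1 and Oat in 8 strains, of Pdgfra and Rest in 7, of Slc16a1 in 6, of Ldha in 5 and of Acot7 in 3.

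**Figure D1:**
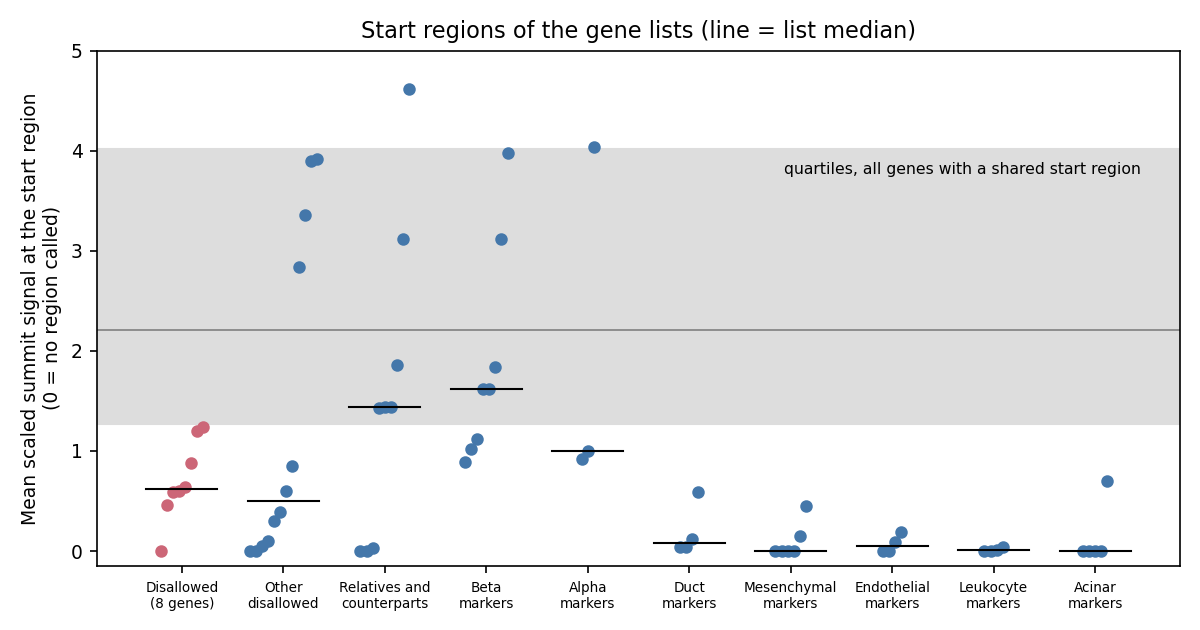
Mean scaled signal over 16 samples at the start region of each gene (y axis, linear, 0 where no region was called) for the 8 disallowed genes and for lists of other genes (x axis), with the list median as a black line and the quartiles of all 10794 genes with a shared start region in grey. The 8 disallowed genes lie between 0 and 1.24, under the lower quartile of 1.27.

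The list of relatives and counterparts had a higher median than the disallowed genes. Gpd2 of the glycerol phosphate shuttle had a mean scaled signal of 4.62, the pyruvate carboxylase gene Pcx 3.11 and Ldhb, the other lactate dehydrogenase subunit, 1.86. Hk2 (1.43) and the glucose transporter gene Slc2a2 (1.44) lay near the beta cell markers. Slc16a3, which codes for a lactate exporter, and Pdgfrb had no start region, and Hk3 had one in the NZO male alone. Of the 9 relatives 6 had a start region in all samples, with a list median of 1.44. Of 12 other disallowed genes 5 had one in all samples, 5 in some and 2 (Arhgdib and Dkk3) in none, with a list median of 0.499. That list was not uniform, since Lmo4 (3.91), Yap1 (3.90), Parp3 (3.36) and Cat (2.84) lay above the median of all shared start regions, whereas Mgst1 (0.0979) and Zfp36l1 (0.0510) were near 0.

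The 51 regions were mostly sparse. There were 8 at a coding TSS, 30 in introns, 7 upstream and 6 in exons with no coding TSS. Of the 51, 9 were called in all 16 samples (17.6%, against 11.8% of all regions and 15.2% of those at protein-coding genes). In 1 sample 24 were called (47.1%, against 46.4% of all regions and 40.1% of those at protein-coding genes). A region of these genes was called in a median of 2 samples, the same as over all regions. Of the 24 single-sample regions, 15 were listed in the NZO male, which listed 20.5% of all single-sample regions. Without that sample 36 regions remained, of which 9 were in all 15 samples and 10 in 1. The 9 shared regions were the start regions of Ldha, Slc16a1, Hk1, Oat, Pdgfra and Rest, an intron of Slc16a1 and a pair of introns of Hk1.

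**Figure D2:**
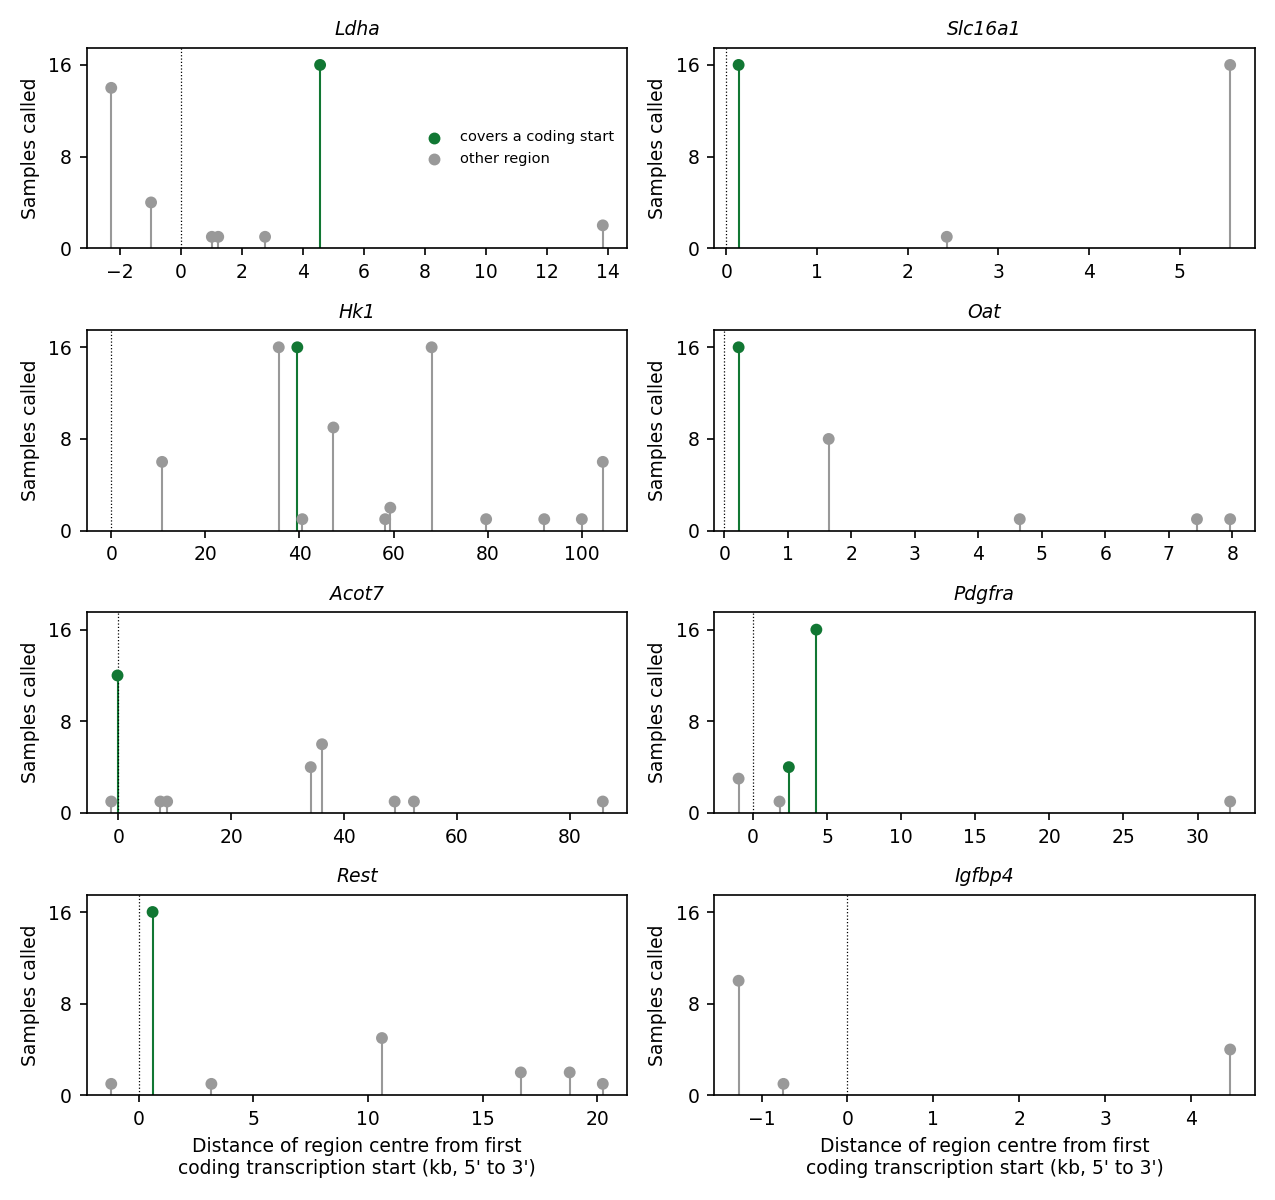
Number of samples (y axis, 0 to 16) in which each region of the 8 genes was called, against the distance of its centre from the first coding transcription start in kb along the gene (x axis, a scale per gene). Green marks regions over a coding start and grey the others. The start regions of Ldha, Slc16a1, Hk1, Oat, Pdgfra and Rest reach 16 samples, that of Acot7 reaches 12, and Igfbp4 has no green region.

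Promoter sequences are shown for the 5 genes with a RefSeq promoter under a called region, 1 for each, of which the one of Acot7 was called in a single sample. RefSeq promoters (250 bases before to 50 after the start, GRCm38.p6, given on the strand of the gene) were found for 7 of the 8 genes. Rest was not matched. Capitals mark ACGTG on either strand, the core of the E-box CACGTG bound by MYC and of the element bound by hypoxia-inducible factors, and a CACGTG counts on both strands. ACGTG was held by 19.7% of the 31396 promoters known to RefSeq.
Ldha, chr7:46845554-46845853, plus strand: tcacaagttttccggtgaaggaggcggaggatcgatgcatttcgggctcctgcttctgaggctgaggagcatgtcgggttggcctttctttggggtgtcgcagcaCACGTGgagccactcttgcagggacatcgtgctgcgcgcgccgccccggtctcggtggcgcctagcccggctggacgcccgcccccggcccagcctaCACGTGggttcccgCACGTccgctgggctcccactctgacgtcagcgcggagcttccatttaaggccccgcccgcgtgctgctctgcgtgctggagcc
Slc16a1, chr3:104638414-104638713, plus strand: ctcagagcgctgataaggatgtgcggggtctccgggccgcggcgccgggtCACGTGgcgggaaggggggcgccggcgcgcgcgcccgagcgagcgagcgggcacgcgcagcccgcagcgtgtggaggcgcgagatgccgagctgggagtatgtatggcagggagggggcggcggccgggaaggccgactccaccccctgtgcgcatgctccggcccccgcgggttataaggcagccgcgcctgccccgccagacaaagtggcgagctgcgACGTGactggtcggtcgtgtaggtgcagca
Hk1, chr10:62340372-62340671, minus strand: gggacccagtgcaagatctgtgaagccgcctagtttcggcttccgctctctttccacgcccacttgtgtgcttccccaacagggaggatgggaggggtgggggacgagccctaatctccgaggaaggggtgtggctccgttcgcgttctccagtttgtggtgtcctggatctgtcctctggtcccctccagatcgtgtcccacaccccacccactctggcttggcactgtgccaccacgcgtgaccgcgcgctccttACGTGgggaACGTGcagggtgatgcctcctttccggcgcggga
Oat, chr7:132576349-132576648, minus strand: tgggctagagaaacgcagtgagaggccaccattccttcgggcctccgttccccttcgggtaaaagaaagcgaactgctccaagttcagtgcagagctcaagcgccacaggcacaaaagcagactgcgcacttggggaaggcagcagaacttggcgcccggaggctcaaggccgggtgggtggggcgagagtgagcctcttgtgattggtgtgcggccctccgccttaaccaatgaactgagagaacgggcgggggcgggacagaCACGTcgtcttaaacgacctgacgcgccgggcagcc
Acot7, chr4:152185358-152185657, plus strand: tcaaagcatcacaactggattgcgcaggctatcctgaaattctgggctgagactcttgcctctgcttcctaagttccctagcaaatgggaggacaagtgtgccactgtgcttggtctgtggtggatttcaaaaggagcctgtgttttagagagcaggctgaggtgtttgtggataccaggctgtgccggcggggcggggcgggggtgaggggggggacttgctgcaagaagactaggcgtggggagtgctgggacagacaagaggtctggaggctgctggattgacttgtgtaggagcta
ACGTG occurred 5 times in this Ldha promoter, 3 times in that of Slc16a1, 2 times in that of Hk1 and once in that of Oat. RefSeq holds a further promoter of Ldha (chr7:46846832-46847131), partly under the same start region, and one of Hk1 (chr10:62379859-62380158), under no region, and ACGTG occurred in neither. It did not occur in the Acot7 sequence, nor in the promoters of Pdgfra (chr5:75152001-75152300) and Igfbp4 (chr11:99040994-99041293), over which no region was called. The Ldha promoter shown also held 1 TGACGTCA, the full cAMP response element, which 1.83% of promoters held, and the Igfbp4 promoter held 1 TATAAA, which 13.6% held. These matches describe the reference letters. Variants of the strains were not analysed here.

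Strain was tested at the 9 regions called in all samples. The test for strain was the moderated F test of limma, with sex in the model, on log2 signal centred per sample, and p-values were adjusted over all shared regions by the Benjamini-Hochberg method at a threshold of 0.05. Across all 40940 shared regions 35.7% were called for strain. Of the 9 shared regions of the disallowed genes 3 were called, the Oat start and both Hk1 introns. At shared start regions the share was 21.2% over all genes and 29.3% over those of low mean signal, under 1.27 (the lower quartile), and 1 of the 6 here was called. How the number of calls moved when a sample or a strain was left out is given in the last section, beside that over all shared regions.

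At the Ldha start (ENSMUSG00000063229.15, region chr7:46845193-46846882, over an untranslated first exon) the scaled signal ran from 0.345 in the AJ male to 1.60 in the NZO male with a median of 0.541. The other 15 samples stayed at or under 0.845, so the NZO male was the one sample clear of the rest. The strain effect had a limma adjusted p of 0.495. Without the NZO female it was 0.00965, where the strain rests on the male alone and its spread is assumed to be that of the others. Its summits lay within 68 bases of each other in the 16 samples. A weaker region 2.28 kb upstream (chr7:46838857-46839531) was listed in 14 samples, from 0.160 in the CAST female to 0.545 in the NZO male, and in neither PWK sample. It was not in the fit of shared regions. Over all regions called in at least 12 samples, where a sample with no peak enters as 0, it had a limma adjusted p for strain of 0.00293.

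At the Slc16a1 start (ENSMUSG00000032902.1, chr3:104637840-104639770) the signal ran from 0.455 in the AJ male to 1.21 in the CAST male with a median of 0.934. No strain was separate from the next one in the order of the means, which went from CAST (1.15 ± 0.0855, SD, n = 2) to B6 (0.647 ± 0.0732). The limma adjusted p for strain was 0.468. The intron region (chr3:104643880-104644564), 5.55 kb inside the gene, had a higher mean than the start, 1.23, with both NZO samples (0.790 and 0.855) and both PWK samples (1.02 and 0.688) below all others, which ran from 1.07 to 1.80. Its limma adjusted p for strain was 0.0805, which misses the threshold. The noncoding gene Gm43581 also overlaps it.

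Hk1 (ENSMUSG00000037012.18) had 12 regions, the most of the 8 genes, over a body of 111 kb. Its start region (chr10:62339671-62341051) covers a coding start inside the gene, 39.5 kb from the first annotated one, and also a start of the antisense gene Hk1os, which ATAC-seq cannot tell apart as it has no strand. The signal ran from 0.679 in the WSB female to 3.71 in the NZO male with a median of 1.14. The other 15 samples reached 1.52 at most. Strain had a limma adjusted p of 0.231, and 0.00824 without the NZO female. The summits fell within 64 bases of each other.

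The Hk1 introns varied between strains, and not in the same way. The sequences at these 2 regions carry the strain calls and are shown as 300 bases around the median summit on the plus strand of GRCm38.p6. Capitals mark CAGATG on either strand, an E-box of the kind that NeuroD factors bind, which 25.3% of the windows at all shared regions held.
Hk1 intron near the start, chr10:62344027-62344326: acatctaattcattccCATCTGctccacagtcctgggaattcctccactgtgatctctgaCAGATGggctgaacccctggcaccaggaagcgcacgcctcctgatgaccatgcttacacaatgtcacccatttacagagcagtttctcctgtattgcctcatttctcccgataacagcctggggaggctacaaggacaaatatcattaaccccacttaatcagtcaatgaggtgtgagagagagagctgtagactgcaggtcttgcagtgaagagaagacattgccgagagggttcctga
Hk1 distal intron, chr10:62311694-62311993: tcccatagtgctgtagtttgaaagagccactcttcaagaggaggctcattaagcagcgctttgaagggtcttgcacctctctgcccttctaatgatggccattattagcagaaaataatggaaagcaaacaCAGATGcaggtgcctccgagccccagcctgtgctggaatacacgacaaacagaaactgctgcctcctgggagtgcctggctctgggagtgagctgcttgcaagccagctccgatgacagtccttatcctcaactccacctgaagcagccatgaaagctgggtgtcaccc
The intron region near the start (chr10:62343911-62344701, 1.58 kb upstream of the inner start, which Hk1os also overlaps) had the highest mean of the 51 regions, 1.90. It was lowest in WSB (0.875 in the male and 1.25 in the female) and PWK (1.03 in the male and 1.53 in the female), and the other 12 samples lay between 1.67 and 2.38 without overlapping them. CAST, which is also wild-derived, had the highest strain mean (2.34 ± 0.0485, SD, n = 2). Strain had an adjusted p of 0.0193 in limma. The limma adjusted p was 0.153 without WSB and 0.0536 without CAST, and the call was also lost without any 1 sample of these strains. Over all shared regions the strain calls fell from 14616 to 10506 without WSB and to 6330 without CAST. Fewer calls raise the adjusted p-values, so these losses alone do not show which strain the call at this region depends on. When all regions called in at least 12 samples were tested, the limma adjusted p here was 0.0558.

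The distal intron (chr10:62311531-62312102, 6.58 kb downstream of the nearest coding start) split by class. The female and male had 2.09 and 1.85 in CAST, 2.27 and 1.19 in PWK, and 1.61 and 1.61 in WSB. The 10 classical samples ran from 0.235 in the NZO female to 0.764 in the NZO male, with a median of 0.633. The classes did not overlap, which holds for 0.459% of all shared regions with the wild-derived samples higher and for 0.598% with them lower. Strain had an adjusted p of 0.00731 in limma, which stayed under 0.05 with each sample or strain left out (0.000156 to 0.0403) and was 0.0564 over all regions called in at least 12 samples. On the 8 strain means the wild-derived strains were higher by 1.59 ± 0.22 (log2, SE), with a limma adjusted p of 0.0369. Calls for class were rare, with 0.00733% of shared regions called higher and 0.0269% called lower in the wild-derived strains. In 30 alternative settings the difference was 1.22 to 1.77, and 11 kept the call (adjusted p 0.0183 to 0.301). The call was lost without any 1 strain other than WSB and without 9 of the 16 single samples. In all 24 of these leave-outs the difference stayed at 1.42 to 1.76. Over all shared regions the class calls numbered 14 with all strains and 355 without WSB. The adjusted p depends on that number as well as on this region. The other shared regions of the 8 genes were not called for class, and the intron near the start had a difference of -0.52 ± 0.26 (adjusted p = 0.466 in limma).

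**Figure D3:**
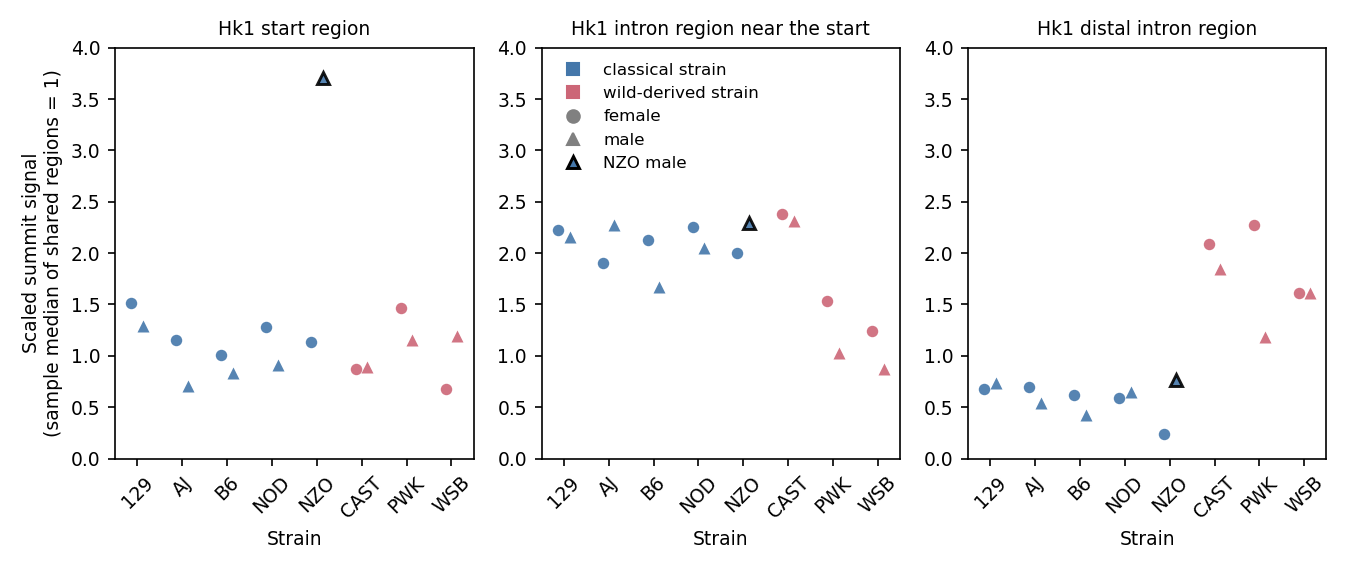
Scaled signal (y axis, linear, 1 is the sample's median shared region) at the start region and the 2 intron regions of Hk1 called in all samples, by strain (x axis), with a circle for the female and a triangle for the male, and blue for classical and red for wild-derived strains. At the distal intron the 6 wild-derived samples lie between 1.19 and 2.27 and the classical samples at or under 0.764, whereas at the start region the NZO male alone reaches 3.71.

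At the Oat start (ENSMUSG00000030934.9, chr7:132575686-132576664, which an annotated Fgfr2 transcript also overlaps) the signal ran from 0.530 in the B6 male to 2.07 in the NZO male with a median of 1.07. PWK had the highest strain mean (1.87 ± 0.0307, SD, n = 2) and AJ the lowest (0.614 ± 0.0455), and the samples of these strains did not overlap. No strain was separate from its neighbour in the order of the means. For strain, limma gave an adjusted p of 0.0499, just inside the threshold. The call was lost in 18 of the 24 fits that left out a sample or a strain (adjusted p up to 0.170, without AJ), the exceptions being the 129 male, the B6 female, either NZO sample, 129 and NZO, and in 4 of 8 other settings.

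Acot7 (ENSMUSG00000028937.14) had no region in all samples. Its start region (chr4:152177643-152178381) was listed in 12 samples and in neither AJ sample, the B6 male nor the NOD male. The signal reached 1.71 in the NZO male, and the other samples reached 0.781 at most. A second region, over the RefSeq start printed above (chr4:152185243-152185973), was listed in the NZO male alone with 1.55. Of the 9 regions of the gene, 6 were listed in the NZO male alone. Because Acot7 lacked a peak in some samples it took no part in the fit over shared regions.

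At the Pdgfra start (ENSMUSG00000029231.15, chr5:75155780-75157352) the signal ran from 0.277 in the B6 male to 1.00 in the 129 female with a median of 0.583. No region covered the first coding TSS, and this one lay over starts 4.27 kb further in. Its summits spread over 1350 bases, so the samples did not peak at one point. Strain had a limma adjusted p of 0.0935, which was 0.0283 without the NZO male and 0.0189 without the NZO female. B6 had the lowest strain mean (0.353 ± 0.107, SD, n = 2) and 129 the highest (0.819 ± 0.256). Other mesenchymal genes gave little signal. Of 6 mesenchymal markers, Pdgfrb, Col1a1, Col3a1 and Cspg4 had no start region, Dcn had a mean of 0.146 and Col1a2 of 0.450.

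At the Rest start (ENSMUSG00000029249.15, chr5:77265000-77267202) the signal ran from 0.325 in the B6 male to 0.938 in the PWK male with a median of 0.642. For strain the adjusted p in limma was 0.254. Rest also held the 2 regions of the 8 genes that were listed in both samples of 1 strain and in no other sample. A coding exon (chr5:77281538-77282767) had 0.431 in the 129 female and 0.290 in the 129 male, and an untranslated exon (chr5:77284128-77284437) had 0.397 and 0.232. At neither did the authors' 129 list hold a peak with an irreproducible discovery rate of at most 0.05. Of the 182 regions listed in both 129 samples alone, 7.14% overlapped an exon of a protein-coding gene. The 129 female alone listed 2 more exon regions of Rest, with 0.293 and 0.328. Regions restricted in this way to 1 to 4 strains made up 3.92% of the 51 regions and 6.14% of all regions.

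Igfbp4 (ENSMUSG00000017493.12) had 3 weak regions, none over its start. The one called most often lay 1.27 kb upstream (chr11:99039800-99040155) and was listed in 10 samples, with a highest value of 0.400 in the NZO male. It was not listed in AJ or NOD, in the B6 female or in the PWK male.

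**Figure D4:**
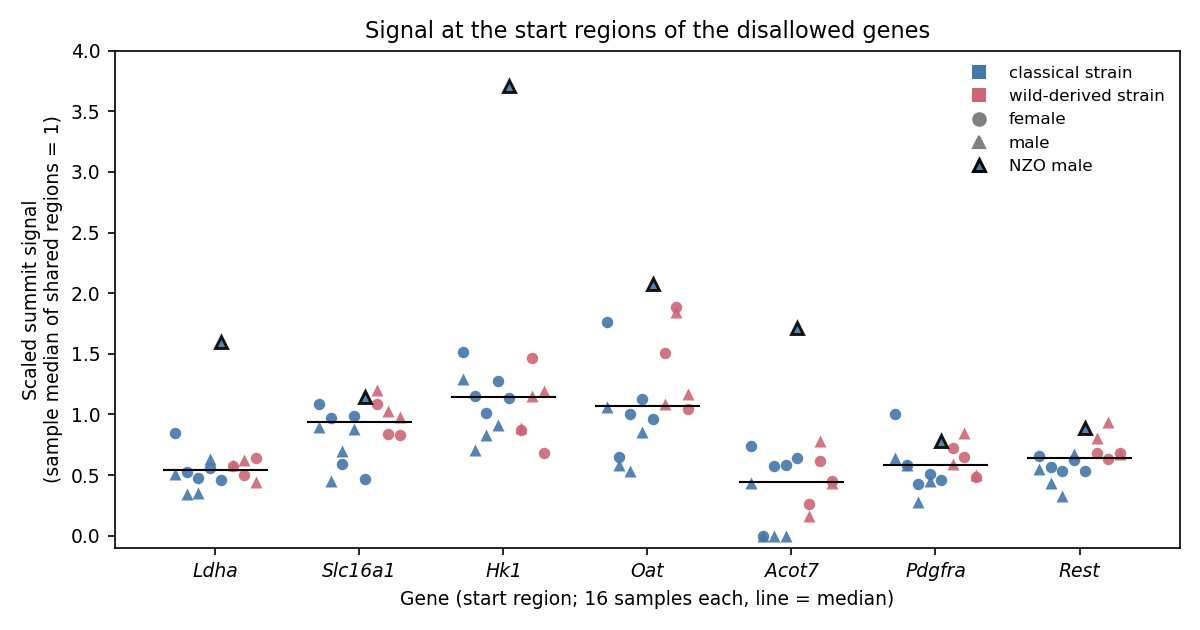
Scaled signal (y axis, linear) at the start regions of 7 disallowed genes (x axis) in the 16 samples, with circles for females, triangles for males, blue for classical and red for wild-derived strains, a black line at the median and a black outline for the NZO male. The NZO male is the highest sample at Ldha (1.60), Hk1 (3.71), Oat (2.07) and Acot7 (1.71). Igfbp4 is not drawn as it had no start region.

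No sex effect was detected at these regions. Over all 40940 shared regions limma called 0 for sex (0%), with 1621 at an unadjusted p under 0.05 (4649 without either NZO sample, still with 0 called), and the 9 shared regions of the disallowed genes had a limma adjusted p of 0.999 each. Female minus male ran from -0.08 ± 0.20 at the Slc16a1 start to 0.18 ± 0.19 at the Oat start (log2, SE). Without either NZO sample all 9 differences were positive, from 0.06 ± 0.15 at the Rest start to 0.36 ± 0.14 at the Oat start, with limma adjusted p-values of 0.404 to 0.893. NZO departed from the other strains in this respect. There the male was above the female in 9 of 9 shared regions, by a median of 1.09 on the log2 scale, where over all shared regions the male was higher in 49.6% with a median of -0.0069. It was so in 7 of 9 by more than in any other strain, which holds for 24.3% of all shared regions. The difference was 1.78 at the Ldha start, 1.69 at the Hk1 start, 1.65 at the distal Hk1 intron, 1.26 at the Slc16a1 start and 1.09 at the Oat start. It was 0.19 at the Hk1 intron near the start and 0.11 at the Slc16a1 intron. These comparisons were chosen after their values were seen, and with 1 mouse of each sex they have no replicate check within NZO.

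**Figure D5:**
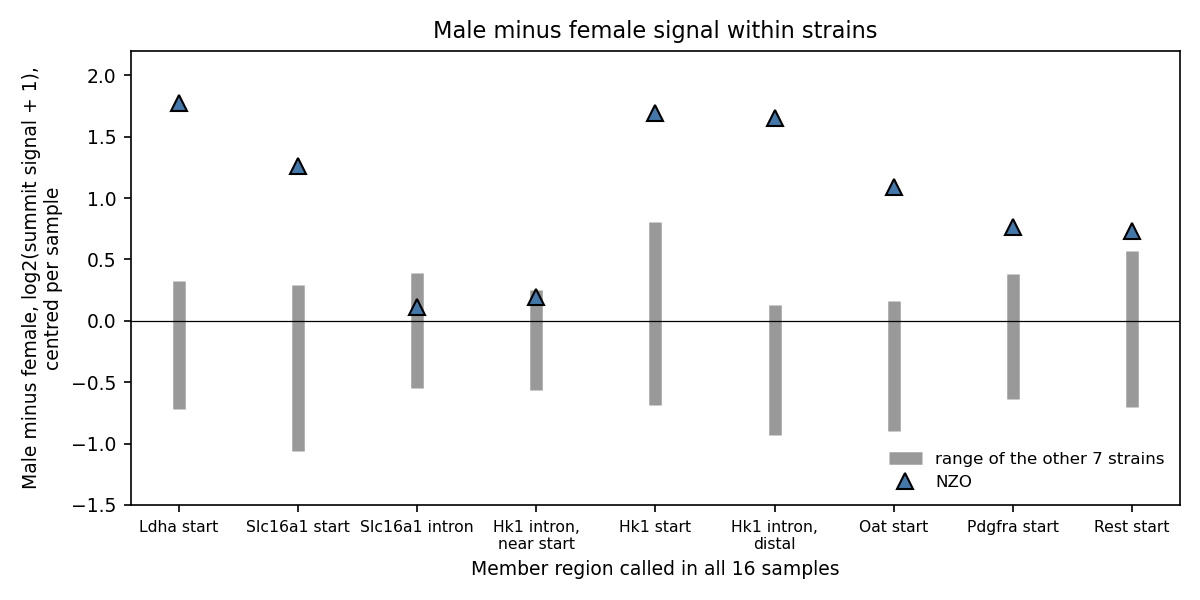
Male minus female difference in centred log2(summit signal + 1) (y axis) at the 9 regions of the disallowed genes called in all 16 samples (x axis), for NZO (triangles) and as the range over the other 7 strains (grey bars). NZO lies above the range of the others in 7 of 9 regions, up to 1.78 at the Ldha start, and within it at the Slc16a1 intron and the Hk1 intron near the start.

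Start regions of other genes went in the same direction in NZO, the weak ones most. Over the 9684 shared start regions of all genes the median NZO male minus female difference was 0.40, with the male higher in 78.9%. Over the 2502 of them under the lower quartile of mean signal, where the disallowed genes lie, it was 0.71, with the male higher in 88.1%, and the NZO male was the highest of 16 samples in 42%. The 6 disallowed genes had a median of 1.18, and the NZO male was highest in 3 of 6. The difference lay above that of every other strain in 6 of 6, in 47% of all shared start regions and in 59.5% of those under the lower quartile. The NZO male was also highest at 6 of the 10 other disallowed genes with a start region. Of the 10, 5 had one in all 16 samples, as the regions behind the shares above did. Among these 5 the NZO male was highest at Parp3 alone (7.29, others at most 4.14). It ranked 2 at Lmo4, 5 at Ndrg2, 9 at Yap1 and 10 at Cat. The rest of the 6 lacked a peak in some samples, among them Smad3 (1.55, others at most 0.774), Mgst1 (0.909, others at most 0.210) and Zfp36l1 (0.709, others at most 0.107). The start signals of the 8 genes summed to 11.9 in the NZO male and to 3.01 to 7.60 in the other samples. This was not particular to them. The sum was 24.5 against 13.4 to 17.75 for the other disallowed genes, and 19.9 against 11.7 to 15.6 for the relatives and counterparts. Of the 7 relatives with a start region, the NZO male was highest at 4.

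Markers of other cells also stood apart in the NZO male. All 4 duct markers had a peak in the NZO male, where the other samples had 1 or 2, and their summed scaled signal was 2.47 against 0.417 to 1.27. Krt19 (0.691) and Sox9 (0.655) were listed there alone. Of 4 leukocyte markers Ptprc (0.491) and Csf1r (0.200) were listed, with a sum of 0.691 against 0 to 0.119, while Cd79a and Cd3e were at 0. None of 4 endothelial markers was listed (others 0 to 0.493), and the mesenchymal sum of 0.327 lay inside the range of the others (0.302 to 0.938). Of the acinar markers Cpa1, Cel, Pnlip and Ptf1a were at 0, and Bhlha15 gave 1.16 against 0.395 to 0.896. The sum over the 8 beta cell markers, 14.3, lay inside the range of 11.8 to 18.8, but it hid opposite moves. Ins1 (1.45, others at least 2.31), Ins2 (0.382, others at least 0.400) and Ucn3 (0.673, others at least 0.981), a marker of mature beta cells, were the lowest of 16 samples, and Mafa (3.67, others at most 2.83) was the highest. NZO is a strain known for obesity, in which males often become diabetic, but the state of this mouse is not given in the sources used here. The part of cell makeup, library quality and strain in the NZO male's values was not tested.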

How the data were processed

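Peak lists of ATAC-seq on islets, 1 female and 1 male from each of 8 strains, were the data. Per the study's methods and processing notes, the authors used cutadapt 2.0 to trim reads and Bowtie2 2.3.4.1 for alignment to mm10. Mitochondrial and duplicate reads were removed with SAMtools and Picard 2.9.2, and MOSAiCS called peaks per sample (false discovery rate 0.05). Whether reads were shifted for the transposase cut is not given in the sources used here. The deposited summit signal is a whole number not scaled to depth, and the deposited significance of a peak is on a −log10 scale. The deposited mean signal of a peak served as an alternative. The deposited strain lists, which score how well the female and male peaks repeat, also on a −log10 scale, served to count strains whose female and male agreed.

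Peaks that touched or overlapped were merged, and each sample took the value of its highest summit there. Regions were annotated with GENCODE M21 (GRCm38, the assembly of mm10). Values were log2(signal + 1), centred on each sample's median over the shared regions, so that a fold change is relative to the typical shared region and understated where signal is low. Strain and sex were tested with limma 3.58.1 in R 4.3.3 in a model of both, and strain class on the 8 strain means. The study's methods use counts of reads, which the lists do not hold, so limma replaced its count test. The fits were tested on simulated data. All 8 genes are named, each with its start region, every region past a threshold (else the shared region of smallest strain p) and regions listed in both samples of 1 to 4 strains alone. Other genes come from fixed lists. One gene of the list of relatives is not reported here. The members and the lists were chosen with earlier results of these data known. Statements on the NZO male were added after values were seen. Chromosomes X and Y were left out. Alternatives covered the pseudocount, centring, the signal measure, peak number, merging, the regions tested and leaving out each sample and strain.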

Additional observations from a re-analysis of the deposited data

Results flagged for a closer look

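Among 27 groups examined (the 8 females, the 8 males and the 5 classical strain means at each of the 9 shared regions), 3 held a sample far from the others by Dixon's ratio of the gap to the whole range, where chance gives about 1 in 20. At the Ldha start the NZO male was the highest of the 8 males, with a ratio of 0.611. At the Hk1 start the NZO male was again the highest male, with a ratio of 0.640. At the Slc16a1 intron NZO had the lowest of the 5 classical strain means, with a ratio of 0.797. Both of its samples were low there, 0.790 in the female and 0.855 in the male, and the adjusted limma p for strain over all 8 strains was 0.0805.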

How the results depend on the processing

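Of the strain calls, that of the distal Hk1 intron was lost in 1 of 31 alternative settings, the wider set of regions called in at least 12 samples (limma adjusted p = 0.0564), and that of the Hk1 intron near the start in 7 of 32. Over that wider set, which held 11 regions of the disallowed genes, the 3 calls were lost and 1 was made, at the region upstream of Ldha. With no centring 7 were called. The count was 1 to 6 when a sample or a strain was left out, with 6 without the NZO female. Over all shared regions the strain count of 14616 became 25891 with no centring and 7454 of 22472 with the 50000 strongest peaks of each list, and ran from 6330 (without CAST) to 24614 (without the NZO female). The 14 calls for class became 73 with no centring, 7 with quantile normalization, 4 with regions in at least 12 samples and 3 with the 50000 strongest peaks, and 0 to 355 when a sample or strain was left out. The class call of the distal Hk1 intron counted 0 in those 4 settings, in the last because the region was no longer called in all samples, and 0 to 1 in the leave-outs. With no centring the median class difference of all shared regions moved from -0.05 to 0.14. Sex gave 0 calls in every setting run, with 895 to 4649 regions at an unadjusted p under 0.05. With the 50000 strongest peaks 5 regions of the disallowed genes, not 9, were called in all samples, the Ldha, Pdgfra and Rest starts and the distal Hk1 intron being called in 14 or 15. The sex test was within strains, since strain was in its model. The cause of the other changes was not tested.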
